A study of Mus musculus with 4 samples.

Results

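Of 14682 H3K27ac peaks of replicate 3 that lay at an end of a protein-coding gene, 5672 had no overlapping peak in replicate 2, and these 5672 regions are described here. The members were chosen by 2 conditions: the peak overlapped a window of 1 kb on either side of an end of a protein-coding gene body, and no replicate 2 peak touched it by 1 bp. They made up 38.6% of the gene-end peaks of replicate 3 (95% Wilson interval, 37.8% to 39.4%) and were taken from 91473 peaks in both lists together. For comparison, 62.3% of all replicate 3 peaks and 69.3% of those away from gene ends had no replicate 2 peak. In the opposite direction, 20 of 9937 gene-end peaks of replicate 2 lacked a replicate 3 peak. Presence in one library and absence from the other is what defined the members, so their strength, width, and number are given as a description without a test. A peak that is missing from the replicate 2 list was not called there, which is not the same as a region without acetylation.

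The study measured H3K27ac by ChIP-Seq in liver sinusoidal endothelial cells (LSECs), the fenestrated endothelium of the liver, isolated from mice by CD146 selection in the methods. There were 2 H3K27ac libraries, replicates 2 and 3, both of one cell type and one antibody, and 2 input libraries with the same numbers that were not analysed here. The records give no genotype, treatment, age, or sex, so the 2 libraries are replicates of 1 group and there is no comparison of conditions. Nothing in the records says whether they came from different animals or pools. The records describe sonicated chromatin and a ligation kit, whereas the methods describe tagmentation.

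H3K27ac is an acetyl mark placed on histone H3 by the coactivators p300 and CBP, and it sits on the nucleosomes that flank the open start site of an active promoter and on active enhancers. Broadly expressed genes commonly start in CpG islands and carry strong, wide acetylation at the start site. Tissue-restricted genes more often have promoters with few CpG dinucleotides, whereas many developmental regulators have CpG islands that Polycomb complexes keep silent outside their own lineage. Bulk chromatin averages over all cells in the tube, so few cells with a strong mark and many cells with a weak mark cannot be told apart.

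The promoters of 5 genes that had a member over the promoter and no replicate 2 peak at either end are shown first, because both CpG-dense and CpG-poor promoters occur among them. Each run is the 250 bases before the annotated start site, 5′ to 3′ on the strand of the gene, from RefSeq (GRCm38.p6), and every CpG dinucleotide is in capitals. *Ddx52* (chr11:83941840-83942089, plus strand), an RNA helicase gene of the DEAD-box family, had the strongest peak of the class, at a fold enrichment of 42.3. *Grik4* (chr9:42944372-42944621, minus strand), a kainate receptor subunit, stands for the ion channels, *Col5a1* (chr2:27886175-27886424, plus strand), a fibrillar collagen chain, for the collagens, and *Cxcr4* (chr1:128592300-128592549, minus strand), the receptor of CXCL12, for the chemokine system. *Tek* (chr4:94739039-94739288, plus strand), the angiopoietin receptor TIE2, is the LSEC marker with the strongest peak of this kind.
Ddx52: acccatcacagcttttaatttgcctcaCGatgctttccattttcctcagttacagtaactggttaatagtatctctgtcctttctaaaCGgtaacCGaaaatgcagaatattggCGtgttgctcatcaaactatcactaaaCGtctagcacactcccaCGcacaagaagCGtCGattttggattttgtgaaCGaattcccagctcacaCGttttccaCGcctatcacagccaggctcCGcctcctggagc
Grik4: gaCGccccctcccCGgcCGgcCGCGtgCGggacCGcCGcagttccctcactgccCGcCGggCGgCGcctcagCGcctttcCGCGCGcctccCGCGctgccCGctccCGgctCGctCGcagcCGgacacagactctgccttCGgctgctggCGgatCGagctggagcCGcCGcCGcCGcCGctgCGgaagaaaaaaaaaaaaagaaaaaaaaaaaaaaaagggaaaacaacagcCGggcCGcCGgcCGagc
Col5a1: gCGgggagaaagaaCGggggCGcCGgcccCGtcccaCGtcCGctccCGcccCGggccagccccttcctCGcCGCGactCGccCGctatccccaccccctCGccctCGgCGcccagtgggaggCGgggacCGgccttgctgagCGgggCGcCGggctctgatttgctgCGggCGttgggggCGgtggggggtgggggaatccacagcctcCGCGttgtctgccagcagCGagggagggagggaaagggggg
Cxcr4: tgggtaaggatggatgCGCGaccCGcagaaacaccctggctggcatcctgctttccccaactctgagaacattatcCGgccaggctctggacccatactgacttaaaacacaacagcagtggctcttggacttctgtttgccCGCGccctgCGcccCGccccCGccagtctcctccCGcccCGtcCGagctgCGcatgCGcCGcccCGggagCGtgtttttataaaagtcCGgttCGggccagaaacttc
Tek: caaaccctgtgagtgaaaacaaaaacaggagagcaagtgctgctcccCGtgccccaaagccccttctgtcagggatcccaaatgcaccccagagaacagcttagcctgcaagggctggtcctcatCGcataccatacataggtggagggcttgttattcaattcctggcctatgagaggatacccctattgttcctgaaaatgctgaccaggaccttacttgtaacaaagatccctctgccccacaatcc
The printed run held 12 CpG dinucleotides in *Ddx52*, 36 in *Grik4*, 28 in *Col5a1*, 19 in *Cxcr4*, and 2 in *Tek*. The fold enrichment of the member at each promoter was 12.5 for *Grik4*, 13.7 for *Col5a1*, 6.51 for *Cxcr4*, and 10.0 for *Tek*. The peak of the CpG-poor *Tek* promoter lay within the range of those of the CpG-dense promoters.

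The members were weak and narrow peaks. Their fold enrichment, the ratio of signal to background given by the authors' peak caller, had a median of 6.19 (interquartile range, 4.85 to 9.25), with a lowest value of 2.56 and a highest of 42.3. Gene-end peaks of replicate 3 that replicate 2 shared had a median of 43.0 (25.7 to 68.4), which was 6.95 times as high. The median width was 279 bp (204 to 396 bp) in the members and 955 bp in the shared peaks. Peaks without a replicate 2 partner away from gene ends had almost the same strength as the members, at a median of 6.21. Against the whole replicate 3 list, the median member stood at the 30.8th percentile of fold enrichment, and 1520 members (26.8%) were above the middle of the list.

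The share of peaks absent from replicate 2 fell as strength rose, over the whole range. Of 514 gene-end peaks with a fold enrichment of up to 4, 98.6% had no replicate 2 peak. The share was 61.1% of 1359 peaks between 10 and 15, 28.8% of 911 between 15 and 20, and 10.7% of 754 between 20 and 25. Between 30 and 45 it was 0.857% (16 of 1866), and above 45 it was 0 of 4260. Peaks seen in replicate 2 and peaks missed there thus occurred side by side over a wide range, and between 8 and 10 the missed share was 82.5%. Peaks away from gene ends followed nearly the same course, with 64.1% between 10 and 15 and 31.5% between 15 and 20.

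**Figure D1:**
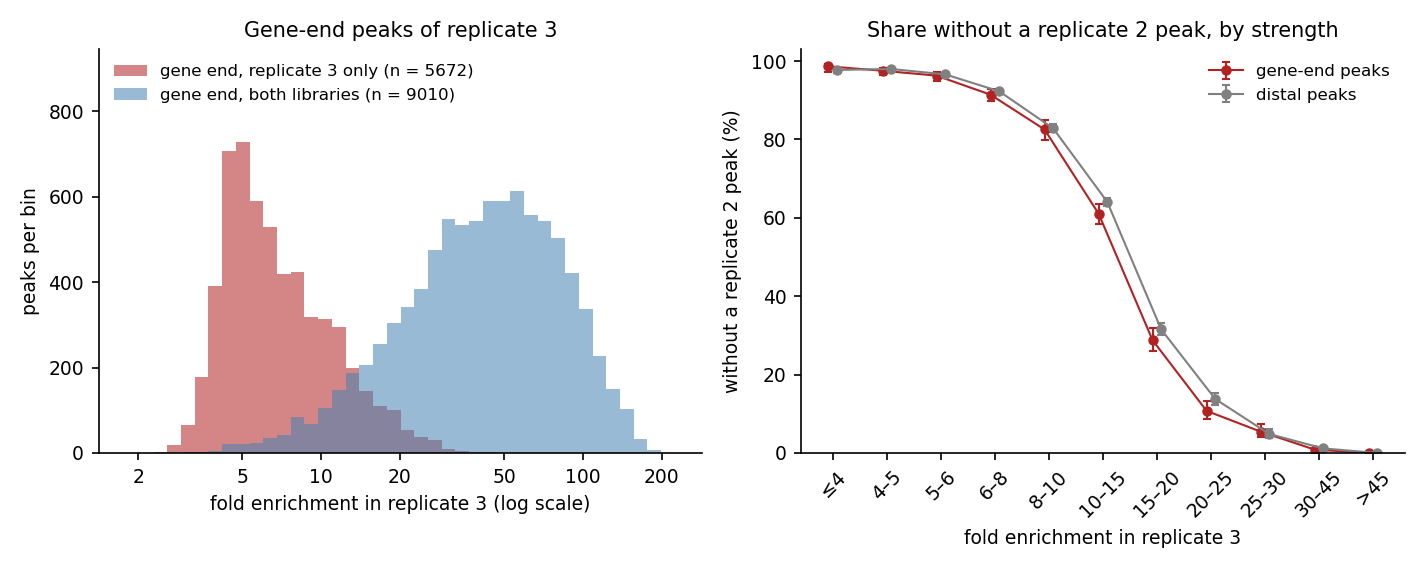
Left, number of gene-end peaks of replicate 3 per bin of fold enrichment (log scale), for the 5672 members (red) and the 9010 shared peaks (blue). Right, percentage of replicate 3 peaks without a replicate 2 peak by fold enrichment, for gene-end (red) and distal (gray) peaks with 95% Wilson intervals; the gene-end share falls from 98.6% in the weakest bin to 0.857% between 30 and 45.

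The thresholds of the rule cut through a continuous set of weak peaks. The member nearest to a replicate 2 peak abutted it at *Rap2b*, a small GTPase gene (chr3:61365219-61365527, fold enrichment 5.02, 0 bp between the peaks). Just inside the shared set, a peak at *Cenpe*, a kinetochore motor gene (chr3:135211884-135212248, 4.54), overlapped by 3 bp. At the edge of the window, the farthest member lay 1000 bp from an end of *Csnk1e*, a casein kinase gene (chr15:79456579-79456755, 4.30), and the first excluded peak lay 1001 bp from any end (chr12:83633209-83633405, 4.88). The member with the lowest −log10 q, 2.22, was at *Otogl* and had a fold enrichment of 2.81. Within 10 bp of the overlap threshold there were 4 members and 5 shared peaks. Within 100 bp of the edge of the window, 392 members lay inside and 368 replicate 3-only peaks outside.

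The name promoter covers the members only in part. RefSeq gave a strand for the genes of 4507 members, of which 3267 (72.5%) lay at a 5′ end only, 1049 (23.3%) at a 3′ end only, and 191 at ends of both kinds. Among 7444 shared peaks with a strand, 5.55% were at a 3′ end only. The summits of the members were spread over the window, with a median distance of 545 bp (171 to 838 bp) from the nearest gene end, as against 72 bp in the shared peaks. A member reached 2 or more genes in 11.5% of cases and a shared peak in 18.5%.

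The members fell into 2 kinds of about equal size. The first kind, 2954 members (52.1%), lay only at genes that also had a replicate 2 peak at an end. These had a median fold enrichment of 5.54 and a median distance of 510 bp to the nearest replicate 2 peak, and 73.9% were within 1 kb of one. Around the 5′ ends of such genes there were 1958 pairs of a member and a start. The summit was within 100 bp of the start in 5.01% of the pairs, more than 500 bp before it in 28.9%, and more than 500 bp after it in 51.2%. Most of these members thus flanked a region that replicate 2 also marked, and more of them lay on the transcribed side of the start.

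The second kind, 2546 members (44.9%), lay only at genes without a replicate 2 peak at either end. Their median fold enrichment was 7.43, their median distance to a replicate 2 peak was 16.9 kb, and 4.05% had one within 1 kb. At the 5′ ends of these genes, the summit was within 100 bp of the start in 40.9% of 1754 pairs of a member and a start. For shared peaks it was 59.0% of 7934 pairs. The other 172 members touched genes of both kinds, and where they lay at a 5′ end they were counted in these pairs. Over all members, 2313 (40.8%) were closer than 1 kb to a replicate 2 peak and 1956 (34.5%) were at least 10 kb away.

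**Figure D2:**
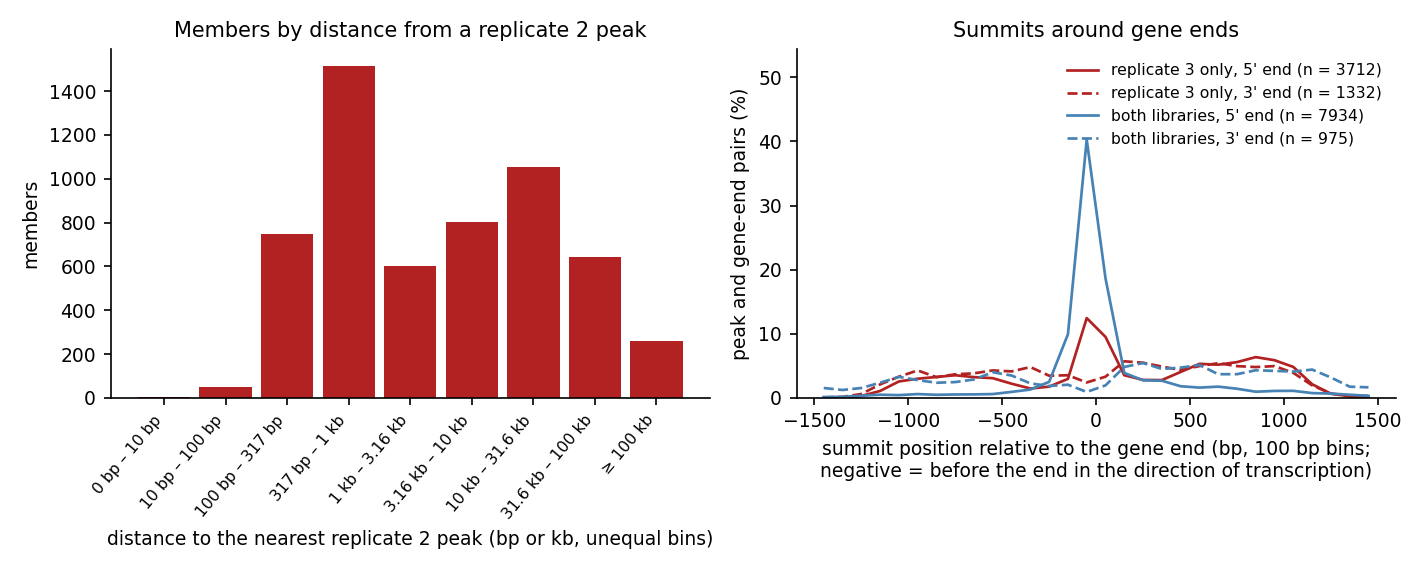
Left, number of members by distance to the nearest replicate 2 peak in unequal bins; 2313 of 5672 are closer than 1 kb and 1956 are 10 kb or more away. Right, position of peak summits relative to 5′ ends (solid) and 3′ ends (dashed) in bins of 100 bp, as a percentage of peak and gene-end pairs, for members (red) and shared peaks (blue); the members have a smaller peak at the start and a broad shoulder after it.

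To describe gene classes, each of the 21887 protein-coding genes was assigned by the peaks within 1 kb of its ends. Both libraries marked 9494 genes (43.4%), replicate 3 alone marked 2298 (10.5%; 95% Wilson interval, 10.1% to 10.9%), replicate 2 alone marked 4, and neither marked 10091 (46.1%). Of the 2298 genes, 2228 held a member. The other 70 held only a replicate 3 peak whose replicate 2 partner lay outside the window, and 83 of the 2228 touched such a peak as well. Most of the 2228 genes (1709, or 76.7%) had a single member, and none had more than 5. Where the strand was known, 267 of 1718 (15.5%) had their members at the 3′ end only. The families below are counted among all their genes, and the background share is the 10.5% over all genes.

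The genes with the strongest members were not of one family. After *Ddx52* came *Arpc1a*, a subunit of the actin-nucleating Arp2/3 complex (chr5:145083611-145084128, fold enrichment 41.7). A single peak of 38.7 lay between *Tada2a*, which encodes an adaptor of histone acetyltransferase complexes, and *Acaca*, which encodes the acetyl-CoA carboxylase of fatty acid synthesis (chr11:84129151-84129824). The 3 regions, that of *Ddx52* included, were 518 to 674 bp wide, and each summit was within 58 bp of a gene end.

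The widest peak of the class belonged to *Nrp1*, which encodes neuropilin 1, a coreceptor of VEGF and semaphorins. It was 2300 bp wide with a fold enrichment of 9.52 (chr8:128357858-128360157), its summit was 639 bp from the 5′ end, and a replicate 2 peak lay 0.455 kb away. The window of *Nrp1* also touched a replicate 3 peak that replicate 2 shared, so the absence of replicate 2 there depends on the window. *Phf2*, a histone demethylase gene, had a peak of 1833 bp (9.12), and *2700081O15Rik* had one of 1771 bp (20.8).

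Most genes of the housekeeping families were marked by both libraries, from 76.9% in DNA replication and mitosis to 100% in RNA polymerase subunits. All 28 RNA polymerase subunits had a peak of both libraries, as did 33 of 34 aminoacyl-tRNA synthetases. Of 83 cytosolic ribosomal protein genes, 75 had both and 3 (3.61%) replicate 3 alone, and of 56 translation initiation factors, 51 had both and 1 replicate 3 alone. Of the few that did, *Rpl19* had a member of 9.93 that also reached an end of *Cacnb1*, and *Mrpl22*, of the mitochondrial ribosome, one of 27.4 at its 3′ end. Mitochondrial ribosomal proteins (6 of 75), oxidative phosphorylation (8 of 87), and the proteasome (3 of 51) were also under the background share, with oxidative phosphorylation (9.20%) close to it. DNA replication and mitosis, the largest of these families, had 13 of 134 (9.70%; 5.76% to 15.9%), led by *Kif18b*, a mitotic kinesin (26.7), and *Bub1*, a spindle checkpoint kinase (25.4). *Ndufb8*, a subunit of respiratory complex I, had the strongest member of the housekeeping families, at 33.5. The median marked housekeeping gene had its strongest replicate 3 peak at 47.2, against 38.7 over all marked genes. Above a fold enrichment of 45, no gene-end peak was a member. The part of strength in the housekeeping shares was not tested.

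Families with a high share of genes marked by replicate 3 alone included integrins, TNF ligands and receptors (25%), homeobox and forkhead factors (23.1%), collagens (22.7%), and ion channels (20.1%). Other families of adhesion and matrix were lower, with 8 of 69 protocadherins (11.6%) and 5 of 59 ADAM and ADAMTS proteases (8.47%). Of 41 families, 24 were above the background share of 10.5%, and in 7 the lower Wilson bound was also above it. The bounds count each gene as independent, although genes of a family can share a member, as the histone genes *H2ac23* and *H4c17* did. The bounds here and below describe the lists and are not a test. Integrins, the receptors that tie cells to matrix, had the highest share, with 10 of 31 genes (32.3%; 18.6% to 49.9%). *Itga9* had a member of 16.6 at its 5′ end and *Itga6*, a laminin receptor subunit, one of 15.3. Another 7 integrin genes were marked by both libraries and 14 by neither.

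Few collagens were marked by replicate 2. Of 44 collagen genes, 1 had a peak of both libraries, 10 (22.7%; 12.8% to 37.0%) had replicate 3 alone, and 33 had neither. Replicate 3 alone thus marked 90.9% of the marked collagens, beside 19.5% of all marked genes. The strongest replicate 3 peak of a marked collagen had a median of 8.14, against 38.7 over all marked genes. *Col7a1*, the anchoring fibril collagen, had a member of 15.6 whose summit was 1012 bp from the 5′ end, and *Col5a1* one of 13.7 at the start. The strongest member of each collagen gene in the class ran from 4.30 to 15.6, with a median of 7.89.

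The basement membrane collagens *Col4a1* and *Col4a2*, on which the study centered, were in this class. The bidirectional promoter between them carried a replicate 3 peak of 752 bp (chr8:11312364-11313115) with a fold enrichment of 6.82 and a −log10 q of 17.4. It lay 9.95 kb from the nearest replicate 2 peak and was at the 5′ ends of both genes. *Col4a2* had a further member of 7.64 at its 3′ end (chr8:11450197-11450543), 2.03 kb from a replicate 2 peak.

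Ion channels gave more genes to the class than any other membrane family. Of 229 genes, 46 (20.1%; 15.4% to 25.8%) were marked by replicate 3 alone and 23 by both. Replicate 3 alone thus marked 66.7% of the marked channels, beside 19.5% of all marked genes. The strongest replicate 3 peak of a marked channel had a median of 12.7, against 38.7 over all marked genes. The strongest member was that of *Cacna1g*, a T-type calcium channel (25.4), which was 69.4 kb from the nearest replicate 2 peak. With a window of 500 bp in place of 1 kb, the share of the channels fell to 11.8%, near the 10.0% of all genes. Over all channels of the class, the strongest member had a median of 7.17 and a lowest value of 3.12. Protocadherins had 8 of 69 genes in the class (11.6%) and 4 marked by both, and the members at these genes reached at most 9.38. Solute carriers were near the background share, with 39 of 389 (10.0%), and the transmembrane proteins named Tmem had 30 of 238 (12.6%; 8.97% to 17.4%).

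Among transcription factors, the homeobox and forkhead genes, which set positional and tissue identity in development, had 36 of 156 in the class (23.1%; 17.2% to 30.3%) and 31 marked by both. *Foxj1*, a regulator of motile cilia, shared its member of 18.9 with an end of *Rnf157*, a gene that both libraries marked. *Irx3*, an Iroquois homeobox gene, had a member of 17.9 at 279 kb from the nearest replicate 2 peak. Zinc finger proteins had 67 of 466 in the class (14.4%; 11.5% to 17.9%), with *Zfp169* (30.1) and *Zfp609* (25.4) in the lead, but 291 were marked by both. In Sox, T-box, Gata, and bHLH factors the share was 14 of 93 (15.1%; 9.18% to 23.7%), and its interval included the background.

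The TNF, chemokine, and Wnt families had small numbers in the class, as had the integrins and the collagens. TNF ligands and receptors had 9 of 36 (25%; 13.8% to 41.1%), led by *Tnfrsf10b*, a TRAIL receptor (16.3), and by *Ltb*, lymphotoxin beta (13.4, at the 3′ end). Chemokines and their receptors had 10 of 58 (17.2%; 9.64% to 28.9%), with *Ccl7*, a monocyte attractant (17.8), and *Cx3cr1*, the fractalkine receptor (14.3, at the 3′ end). Wnt ligands and Frizzled receptors had 5 of 29 (17.2%; 7.60% to 34.5%), with *Fzd3* (21.2) and *Fzd9* (19.2). For the last 2 families the interval included the background.

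Genes of metabolism and detoxification were split by family. Glutathione and UDP transferases, which conjugate drugs and bilirubin, had 8 of 42 in the class (19%; 9.98% to 33.3%), and *Gstm4* (22.1) and *Gstm2* (21.2) had members at their 5′ ends. Cytochrome P450 genes had 14 of 99 (14.1%; 8.61% to 22.3%), of which 7 had their strongest member at the 3′ end only. With 5′ ends only their share was 6.49%, below the 9.04% of all genes, with a window of 500 bp it was 8.08% against 10.0%, and with as many peaks as in replicate 2 it was 0. These were weak, with a median of 5.21 and a highest value of 8.79 at *Cyp26a1*, which encodes a retinoic acid hydroxylase. Apolipoproteins (4 of 33) and serpins (4 of 63) gave a few genes each.

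Receptor families of smell, pheromone, and taste and genes of skin and mucosa had few members. Olfactory receptors had 6 of 1110 genes in the class (0.541%; 0.248% to 1.17%) and none marked by both libraries. *Olfr457* (12.4) and *Olfr544* (10.5) had their members at the 3′ end, as had 3 of the 6 in all. Vomeronasal and taste receptors had 1 of 393, defensins 2 of 71, and keratins 4 of 109. In these 4 families, as in 3 of the housekeeping families above, the upper Wilson bound was below the background share. The low shares at both extremes have different makeup: 94.0% of the cytosolic ribosomal protein genes were marked, as against 0.541% of the olfactory receptors.

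**Figure D3:**
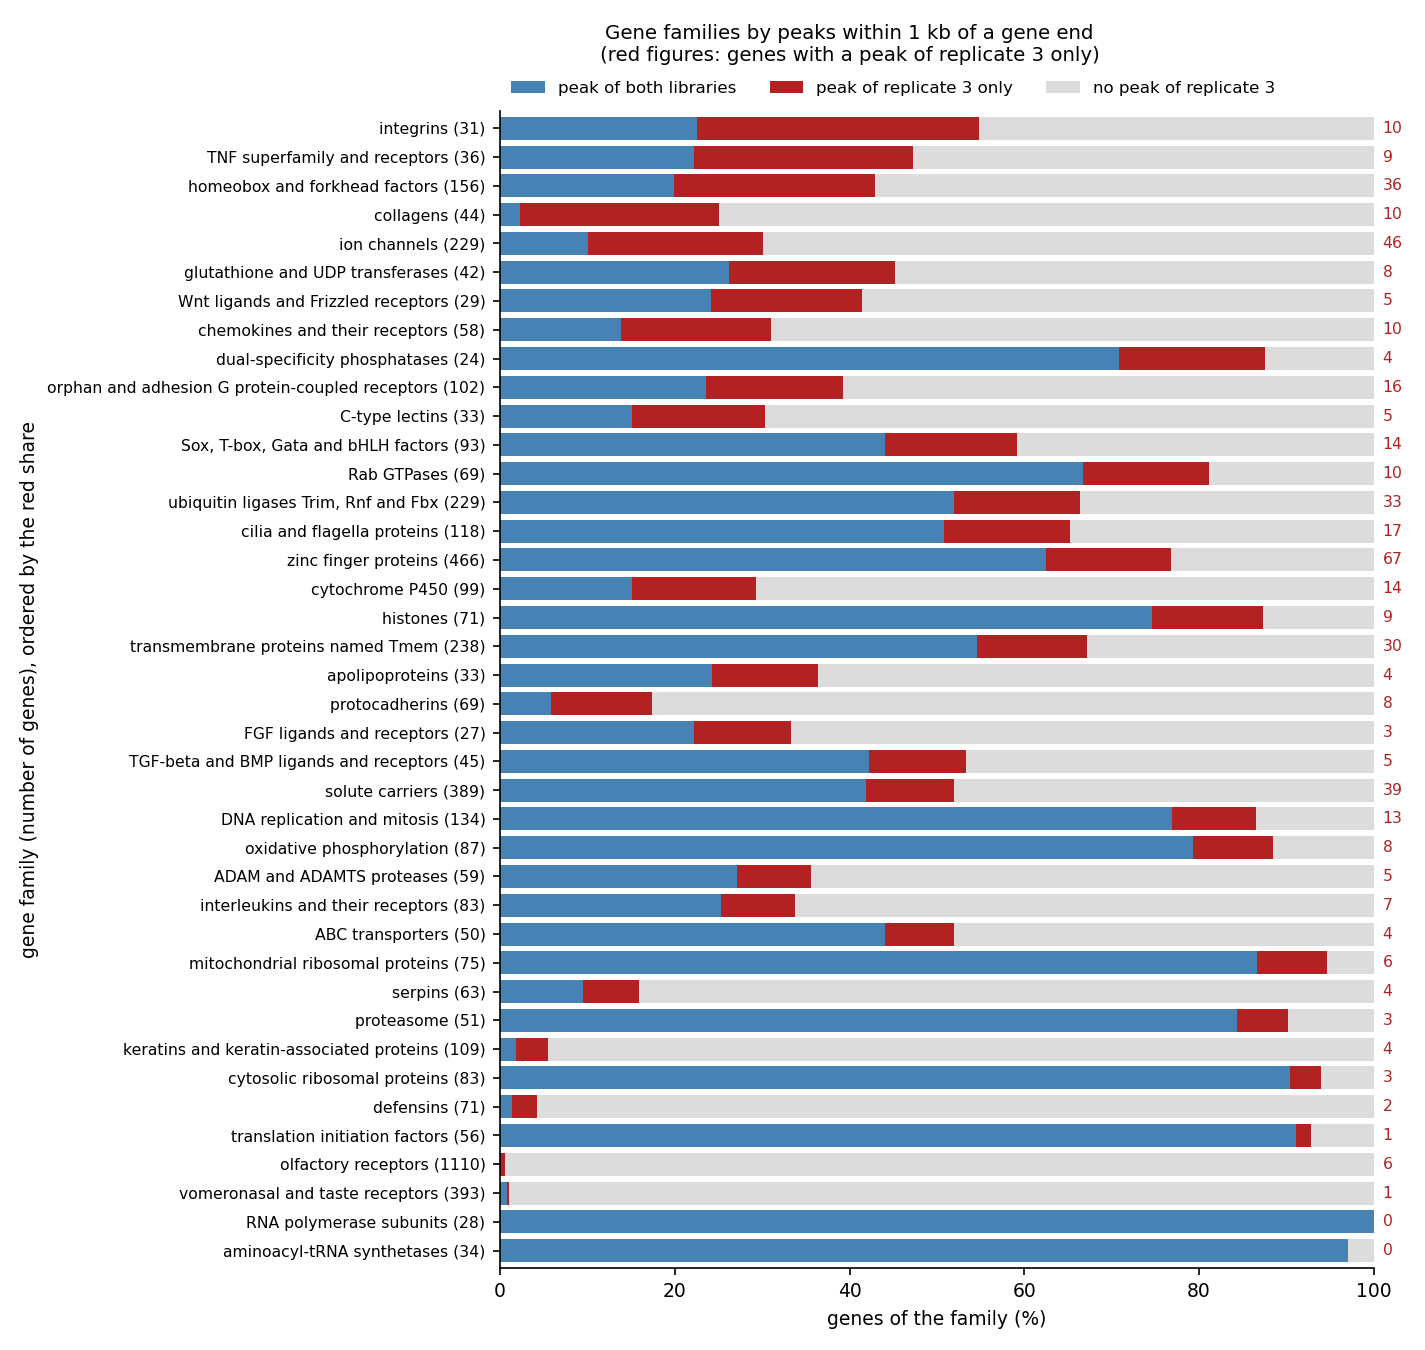
Percentage of genes in each family drawn with a peak of both libraries (blue), of replicate 3 only (red), or no replicate 3 peak (gray) within 1 kb of a gene end. Families are ordered by the red share, from integrins (10 of 31 genes) down to the aminoacyl-tRNA synthetases and RNA polymerase subunits with 0.

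The kinds of families differed in the strength of their peaks as well as in their shares. Where the strongest replicate 3 peak of a gene was between 10 and 30, replicate 3 alone marked 27.4% of 3213 genes. This range does not match strength closely. Within it, the share of gene-end peaks without a replicate 2 peak fell from 61.1% (10 to 15) to 5.45% (25 to 30). In this range, replicate 3 alone marked 19.6% of 97 housekeeping genes, 17.9% of 28 histone genes, 25.9% of 166 transcription factor genes, 34.9% of 175 membrane protein genes, 37.5% of 32 immune genes, 40.7% of 91 signaling genes, 41.7% of 24 metabolic genes, 41.9% of 31 tissue-specific genes, and 55.6% of 9 matrix genes. Of the 31 tissue-specific genes, 21 encoded proteins of cilia and flagella, a family with 17 of 118 genes (14.4%) in the class. Under a fold enrichment of 10, replicate 3 alone marked 90.3% of all 1463 genes, and it marked 86.7% of 15 housekeeping and 95.5% of 89 membrane protein genes. Over all genes of each kind, marked or not, the share was 16.4% for transcription factors, 15.1% for signaling, 14.8% for immune, 14.6% for matrix, 13.8% for membrane, 12.7% for histone and for metabolic, 6.20% for housekeeping, and 1.7% for tissue-specific families. Of the 1801 tissue-specific genes, 1110 were olfactory receptors and 393 were vomeronasal or taste receptors. The part of strength in these differences was not tested.

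The labelled cell type was checked against its markers. All 17 LSEC markers had a replicate 3 peak, as had 11792 of all 21887 genes. Of the 17 markers, 13 also had a replicate 2 peak and 4 had replicate 3 alone. The share of 23.5% (9.56% to 47.3%) had an interval that included the 10.5% of all genes. It was 0 with as many peaks as in replicate 2, and 62.5% of 8 genes with 5′ ends only. The 4 were *Tek* (10.0), *Stab2*, the hyaluronan scavenger receptor (5.86), *Clec4g*, the lectin LSECtin (4.56), and *Mrc1*, the mannose receptor (4.15). The strongest member of each was at the 5′ end, and a replicate 2 peak lay 1.95, 6.18, 1.47, and 2.33 kb away from it, in that order. These are defining genes of the cell type, yet 3 of the 4 had members below the median of all members.

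The other marker lists gave 3 genes at most, beside a background share of 10.5% over all genes. Of 9 markers of large vessel or capillarized endothelium, 3 were in the class, namely *Sox17*, an arterial transcription factor (11.7, 1705 bp wide), *Vwf*, von Willebrand factor (9.12), and *Cd34* (4.28), and 4 were marked by both. The 3 genes made up 33.3% of the list (12.1% to 64.6%), but *Sox17* and *Cd34* also touched a shared replicate 3 peak. Without genes of that kind the share was 11.1%, near the 9.80% of all genes. Hepatocyte markers had 2 of 13 (15.4%), with *Apob* (11.4, 996 bp from the 5′ end) and *Apoa1* (11.4, at the 3′ end), and 1 marked by both. Hepatic stellate cell markers had 2 of 12 (16.7%), with *Col1a1*, the fibrillar collagen of scars (12), and *Acta2*, smooth muscle actin (5.61, at the 3′ end and shared with *Stambpl1*), and none marked by both. None of 11 Kupffer cell and none of 5 erythroid markers were in the class, and 2 and 1 of them were marked by both.

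Genes of tissues foreign to the liver had 2 of 12 in the class (16.7%; 4.70% to 44.8%), an interval that included the 10.5% of all genes. The 2 were *Sftpc*, a lung surfactant protein gene (11.7, in a peak that also reached *Bmp1*), and *Ckm*, muscle creatine kinase (8.83, at the 3′ end). None of the 12 was marked by both. *Epcam* (5.86) was the only 1 of 7 cholangiocyte markers, and *Cd3d* (5.54, at the 3′ end) was in the class among 7 lymphocyte markers. The count of 2 among genes of absent tissues equals that among hepatocyte and among stellate cell markers, but this depended on the setting. With 5′ ends only, the class held 0% of 9 genes of absent tissues, 0% of 8 stellate cell markers, and 10% of 10 hepatocyte markers. What these members say about the cells in the libraries was not tested.

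Promoters of the class were intermediate in sequence between those marked in both libraries and those in neither. RefSeq promoters of 300 bases, 250 before the start site and 50 after it, could be used for 15746 genes and were assigned by the peaks within 1 kb of the 5′ end alone. The observed to expected CpG ratio had a median of 0.615 in 1353 promoters of replicate 3 alone (interquartile range, 0.381 to 0.798), 0.816 in 7089 promoters of both libraries, and 0.218 in 7301 promoters of neither. A ratio of at least 0.6, called CpG-rich here, was found in 52% of the class, as against 83.5% and 14.8% in the others and 48.9% of all promoters. GC content followed the same order, at medians of 58.7%, 62.0%, and 48.7%.

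The class held both types of promoter in nearly equal number, 704 that were CpG-rich and 649 that were not. The strongest replicate 3 peak at the 5′ end had a median fold enrichment of 9.65 in the former and 8.47 in the latter. Within a fold enrichment of 10 to 30, 58.1% of 539 promoters of replicate 3 alone and 73.0% of 1687 promoters of both libraries were CpG-rich, and below 10 the shares were 47.4% of 783 and 48 of 96. The gap to promoters of both libraries was thus smaller within these 2 ranges of fold enrichment, which are wide and do not match strength closely. By family, the collagens had 6 of 8 promoters CpG-rich and the homeobox and forkhead factors 11 of 17, whereas ion channels had 9 of 20, zinc finger proteins 17 of 47, and TNF ligands and receptors 1 of 6.

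Short motifs were counted in the same 300 bases on both strands, as letters only, and matches of different motifs may overlap. The GC box GGGCGG was in 55.9% of promoters of the class, 70.9% of those of both libraries, 21.6% of those of neither, and 46.8% of all promoters. The ETS motif CCGGAAGT was in 4.73%, 10.2%, 0.808%, and 5.37% in the same order, and the TATA box TATAAA in 8.65%, 6.25%, 21.8%, and 13.7%. For these 3 motifs the class lay between the other 2. The letters of the GC box and of the ETS motif hold a CpG. Within the class, the GC box was in 71.9% of CpG-rich promoters and 38.7% of the rest. The CCAAT box was in 34.4% of the class, below both libraries (41.3%) and neither (38.6%), and in 39.4% of all promoters. The GATA motif AGATAAG (2%, 1.48%, 3.89%, and 2.64%) and the AP-1 motif TGANTCA (6.36%, 4.18%, 9.85%, and 7%) were in few promoters of any class. For both of them the class again lay between the other 2. In the runs printed above, *Grik4* and *Col5a1* held the GC box, *Cxcr4* the GC box and the TATA box, *Ddx52* the CCAAT box, and *Tek* none of the 6.

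**Figure D4:**
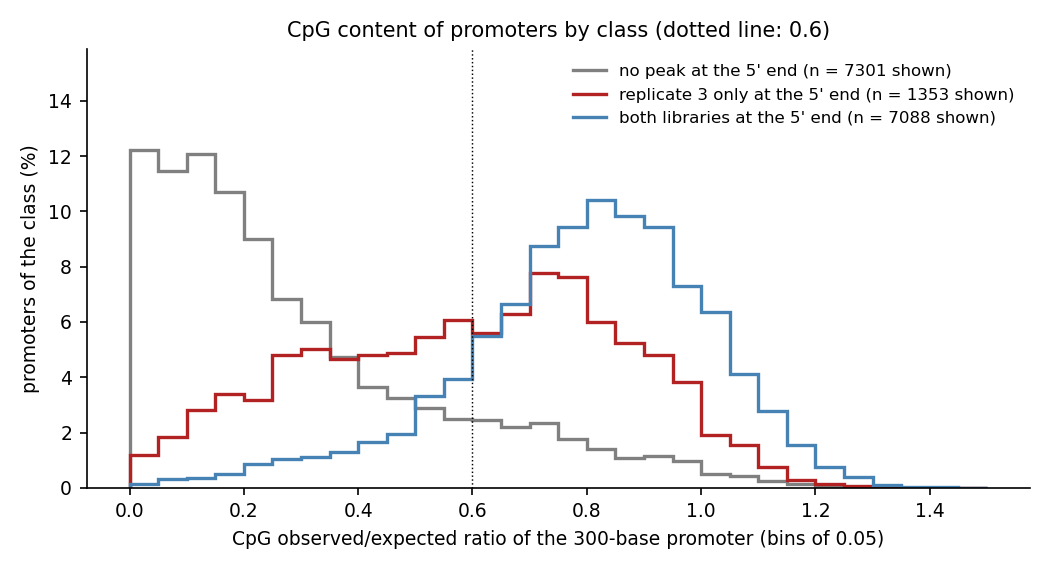
Observed to expected CpG ratio of 300-base promoters in bins of 0.05, as a percentage of the promoters in each class by peaks at the 5′ end: both libraries (blue), replicate 3 only (red), or none (gray). The class of replicate 3 only is spread over both sides of the dotted line at 0.6, with 52% on or above it.

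The members were not spread evenly over the chromosomes. On chromosome 11, 610 of 1297 gene-end peaks (47.0%) were members, and on chromosome 19 it was 276 of 568 (48.6%), whereas the other autosomes and chromosome X ranged from 34.0% to 41.3%. The same was seen within a limited range of fold enrichment, which does not match strength closely. At a fold enrichment of 10 to 30, 48.5% of 379 gene-end peaks on chromosome 11 (43.6% to 53.6%) and 46.5% of 155 on chromosome 19 (38.8% to 54.3%) had no replicate 2 peak, against 32.0% over all chromosomes and 22.8% to 41.8% on the others. Distal peaks of this strength, which are not members, had 54.5% and 55.9% on these 2 chromosomes against 42.5% overall. Of the 139 members with a fold enrichment of at least 20, 43 (30.9%) were on chromosome 11, which held 8.83% of gene-end peaks. *Ddx52*, *Tada2a* with *Acaca*, *Cacna1g*, *Foxj1*, *Ccl7*, and *Col1a1* lie on chromosome 11 and *Ndufb8* on chromosome 19.

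**Figure D5:**
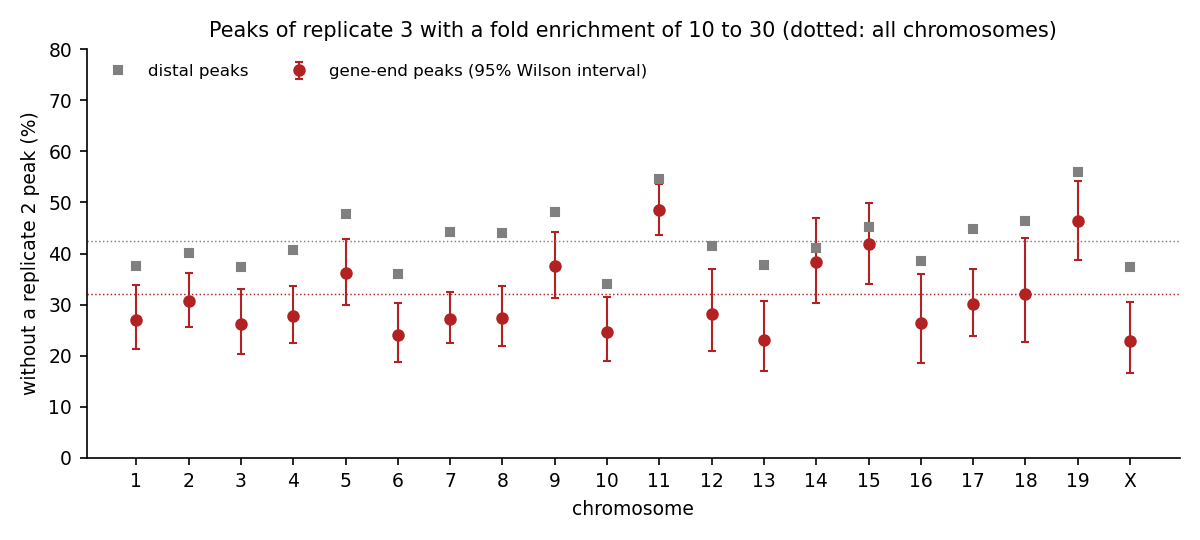
Percentage of replicate 3 peaks with a fold enrichment of 10 to 30 that have no replicate 2 peak, by chromosome, for gene-end peaks (red, 95% Wilson interval) and distal peaks (gray); dotted lines give the shares over all chromosomes, 32.0% and 42.5%. Chromosomes 11 and 19 are highest in both sets, and chromosome Y, with 7 gene-end peaks, is not drawn.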

How the data were processed

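H3K27ac ChIP-Seq peaks of 2 LSEC libraries, replicates 2 and 3, were analysed. The authors deposited 1 peak list per library, each with a fold enrichment (a ratio of signal to background), the −log10 p-value and −log10 q-value of their peak caller, and a rescaled score. The submitters' processing notes name cutadapt, BWA 0.7.17, Picard 1.67, MACS2 2.0.10, bedtools 2.27.1, and the genome build mm10. Whether the inputs served as control in peak calling is not given in the sources used here. No read counts are in the lists, and library depth is therefore unknown. Intervals are Wilson intervals (95%) for counts of peaks or genes and cover counting error only. A library in which more peaks pass the caller's threshold gives more members.

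Ends of 21887 protein-coding genes came from the RefSeq annotation of GRCm38.p6. Strand was known for 17492 genes, and promoters of 15746 were used. Peaks were shared when they overlapped by 1 bp. Each gene was assigned by the peaks within 1 kb of its ends. No test was run, since the rule used both lists. Overlap functions were tested on simulated data. The members, the 9 marker lists, and the 41 gene families (by symbol, at least 10 genes) were chosen with earlier results of these data known. The genes named are the 5 with the strongest and the 3 with the widest peaks, up to 2 leading genes per family (only some families are described by name), all marker genes in the class, *Col4a1* and *Col4a2*, and the peaks at the thresholds. *Grik4* and *Cxcr4*, whose promoters are printed, were added as the strongest genes of their lists with a member over a printable promoter. Chromosome 18 promoters were not used here. A few named genes and 1 family are not reported here. Alternatives changed the overlap, the q-value, the number of peaks, the window, the ends, and the measure. The scripts ran in Python (3.11.15) with pandas (2.3.3) and numpy (2.4.6); scipy (1.17.1) and matplotlib (3.10.9) served for intervals and plots.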

Additional observations from a re-analysis of the deposited data

How the results depend on the processing

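The number of members and their share of gene-end peaks moved with the definition of a shared peak more than with the q-value. A reciprocal overlap of at least 50% gave 10410 members (70.9%) and 6899 genes, and counting a replicate 2 peak within 1 kb as shared gave 3359 members (22.9%). With the replicate 3 list cut to its strongest peaks, as many as replicate 2 had, 949 members (9.92%) and 823 genes were left. Windows of 500 bp and 2.5 kb gave 3343 (28.7%) and 9702 (47.9%) members, and 5′ ends only gave 3458 (33.0%). Without replicate 2, all 14682 gene-end peaks and 11792 genes would be members. Without chromosomes 11 and 19, an alternative chosen after seeing the data, the share was 37.3%. A stricter −log10 q of at least 5 in both lists left 5302 members (38.1%). The number of genes was otherwise between 1581 and 2537, and 21 to 25 of the families (24 as reported) were above the share of all genes. Ion channels (26.6%) and collagens (25%) fell below the share of all genes (31.5%) under reciprocal overlap, whereas the 7 leading families were above it under the 8 other settings that used both libraries. These 7 were picked by their lower Wilson bound in the same lists, and the settings recount many of the same peaks. With as many peaks as in replicate 2, 3 collagens, 3 integrins, and 3 TNF genes were left, and zinc finger proteins had 4.51% against 3.76%. With a window of 500 bp the ion channels were at 11.8%, near the 10.0% of all genes. With 5′ ends only, cytochrome P450 genes were below the share of all genes (6.49% against 9.04%). Of the promoters of the class, 53.3% were above the median CpG ratio of all promoters and 59.3% above the median GC content. By −log10 q, the median member stood at the 31.7th percentile. Of 450 shares of single lists under 9 alternatives, 374 stayed within the Wilson interval of the reported share. This count does not measure stability, because the interval of a small list is wide (0% to 43.4% for the 5 erythroid markers). The alternatives also reused the same peaks. Of the 76 shares that moved, 27 did so under reciprocal overlap. No value without replicate 3 can be given, since its peaks are the members. No paired analysis was possible because the 2 libraries form 1 group and no test was made. The lists give no read counts, so what depth limits here cannot be stated, and a region absent from the replicate 2 list was only not called there.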
